A study of Mus musculus with 8 samples.

Results

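Lysosomes digest what a macrophage takes up and what its autophagy delivers. Their enzymes work only at acid pH, which a proton pump (the V-ATPase, a membrane V0 sector driven by a cytosolic V1 sector) keeps up, and the products leave through membrane carriers and channels. Many of these genes carry a CACGTG element that the basic helix-loop-helix factors TFEB, TFE3 and MITF (the MiT/TFE family) can bind, and these factors enter the nucleus when the mTORC1 kinase at the lysosome is inactive. Macrophages and osteoclasts hold large amounts of these enzymes and pumps. The set described here is defined by gene symbol, with no measured value in its rule, and holds 45 of the 23354 symbols in the deposited tables: 7 lysosomal membrane proteins, 16 glycan and sulfate hydrolases, 9 lipid and protein hydrolases or soluble cofactors, the 3 MiT/TFE factors and 10 proton pump genes. All 45 were found and all 45 were among the 10934 genes tested.

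The libraries were made from bone marrow-derived macrophages of 8-week-old mice, labelled with the strain C57BL/6J and grown for 7 days in medium from L929 fibroblasts. Ern1f/f mice carry loxP-flanked alleles of Ern1, which encodes the unfolded protein response sensor IRE1 alpha, and served as controls; Ern1f/fLyz2-Cre mice carry the same alleles and a Cre recombinase driven by the myeloid Lyz2 gene. Each genotype was sampled as untreated control and after 24 h with IL-4 at 20 ng/ml, a cytokine that drives alternative activation, with 2 libraries in each of the 4 groups, numbered 1 and 2. The title of 4 of the 8 libraries contradicts their genotype field, which follows the replicate number. The groups here are those of the titles, and what a replicate number marks (animal, culture or day) is not given, so the p-values measure the spread between these libraries, which may be technical.

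Ern1 itself was listed at 7.43 to 14.3 FPKM (fragments scaled to the length of the transcript and to the fragments mapped in the library) in the 8 libraries. It was higher in Ern1f/fLyz2-Cre in 3 of 4 matched pairs and lower in the IL-4 pair numbered 1 (10.2 FPKM in Ern1f/f, 7.43 in Ern1f/fLyz2-Cre). A gene-level FPKM does not show a deletion of some exons, so Ern1 does not check the labels. Lyz2, the gene in which the Cre is inserted, was lower in the libraries titled Ern1f/fLyz2-Cre in all 4 pairs: 10950 against 18110 FPKM in control 1, 5780 against 8901 with IL-4 1, 2171 against 17420 in control 2 and 1572 against 11960 with IL-4 2. That order goes with the titles. Taken as ranges, Lyz2 overlapped by title (8901 to 18110 FPKM in Ern1f/f, 1572 to 10950 in Ern1f/fLyz2-Cre). It also overlapped by the genotype field, which equals the replicate number (5780 to 18110 FPKM in number 1, 1572 to 17420 in number 2). Within groups, Lyz2 was lower in number 2 except in Ern1f/f with IL-4 (8901 FPKM in number 1, 11960 in number 2). The deposited confidence intervals, read as counting error, correspond to 21533652 to 37926468 fragments a library. All 9 macrophage markers were detected, while the dendritic cell, T and NK cell and erythroid markers stayed under 1 FPKM in every library. The summed level of 9 fibroblast markers was 82.0 to 469 FPKM in the libraries numbered 1 and 2.68 to 7.89 FPKM in those numbered 2, with Lum under 1 FPKM throughout. Sums of other marker lists also separated the numbers, that of 7 osteoclast markers (55.4 to 116 FPKM in number 1, 149.9 to 236 in number 2), of 5 monocyte markers (7.13 to 18.9 and 3.705 to 6.95) and of 5 B cell markers (0.791 to 2.37 and 5.295 to 16.8, with all but Cd79b under 1 FPKM throughout). In such bulk RNA, fewer cells of a type and less RNA per cell cannot be told apart.

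The promoters of the set are shown first because the CACGTG element defines much of what is known of its regulation. RefSeq promoter entries (GRCm38.p6, 250 bases before to 50 after each start) matched 38 of the 45 genes; Galns, Npc1, Asah1, Hgsnat, Atp6v1b2, Atp6v1c1 and Atp6v1h had none. The palindrome CACGTG, which reads the same on both strands, was present in 12 of the 38 (31.6%), against 8.09% of all 27025 genes with an entry. The longer palindrome TCACGTGA, which contains it, was present in 5 of the 38 (13.2%), against 1.12% of all genes. Its 6 occurrences are printed with their surroundings, 5′ to 3′ on the strand of the gene, with the element in capitals.
Mcoln1, chr8:3500462-3500491, plus strand: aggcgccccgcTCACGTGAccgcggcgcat
Cln3, chr7:126583340-126583369, minus strand: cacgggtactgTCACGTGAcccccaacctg
Gla first site, chrX:134601215-134601244, minus strand: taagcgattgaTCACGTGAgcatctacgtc
Gla second site, chrX:134601182-134601211, minus strand: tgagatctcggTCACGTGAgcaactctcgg
Atp6v1a, chr16:44139373-44139402, minus strand: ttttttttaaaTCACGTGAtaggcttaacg
Atp6v0d1, chr8:105566050-105566079, minus strand: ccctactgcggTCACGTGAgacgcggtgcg
The element begins 46 bases before the RefSeq start in Mcoln1, 122 in Cln3, 228 and 195 in Gla, 132 in Atp6v1a and 4 in Atp6v0d1. Lamp1 carried 4 copies of CACGTG and none of the longer form, the most of any gene in the set, and Gaa, Glb1, Naglu, Sgsh, Arsa and Lgmn carried 1 each. A match is a description of letters in a window, not a binding site.

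The set was expressed at high levels. Psap, the precursor of the saposins that present lipids to hydrolases, was listed at 5327 to 7465 FPKM and ranked 7 of the 10934 genes by mean. Lamp1, a glycoprotein of the limiting membrane, lay at 745 to 963 FPKM (rank 98), Grn, which encodes progranulin, at 629 to 944 FPKM (rank 104), and Laptm5, a lysosomal membrane protein of blood cells, at 716 to 879 FPKM (rank 113). Together the 45 genes made up 2.11 to 2.72% of the summed FPKM of a library. The highest glycan hydrolase was Hexa, the alpha subunit of beta-hexosaminidase, at 394 to 597 FPKM, and the lowest was Arsa, arylsulfatase A, at 7.68 to 13.8 FPKM. Among the lipid and protein enzymes Smpd1, acid sphingomyelinase, was lowest at 10.2 to 18.7 FPKM. In the pump the V1 B subunit gene Atp6v1b2 was highest by mean (216 to 487 FPKM) and Atp6v1h, the V1 H subunit, lowest (38.4 to 53.3 FPKM). Tfe3 had the highest mean of the factors (50.5 to 59.8 FPKM), above Tfeb (23.5 to 44.8 FPKM) in every library, and Mitf was lowest by mean (12.7 to 35.4 FPKM). Within the set, 21 genes varied by less than 1.5-fold over the 8 libraries and 7 by more than 2-fold. The fewest fragments implied behind a value were 694, for Smpd1, a counting error of 3.8%.

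**Figure D1:**
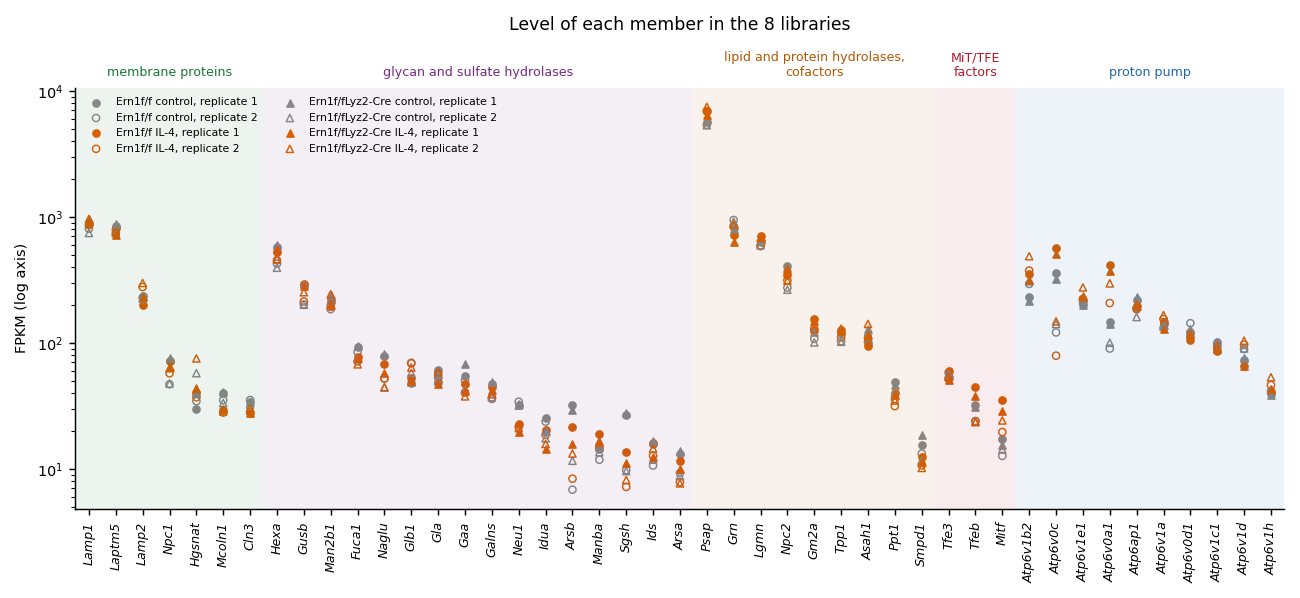
FPKM of each of the 45 genes (log axis) in the 8 libraries, ordered by mean within each role; grey is control, orange is IL-4, circles are Ern1f/f, triangles are Ern1f/fLyz2-Cre, filled symbols are replicate 1 and open symbols replicate 2. Psap stands at 5327 FPKM or above in every library, and the widest spreads belong to Atp6v0c, Arsb, Atp6v0a1 and Sgsh.

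IL-4 was followed by opposite changes inside the set. Averaged over both genotypes, the proton pump gene Atp6v0a1 was 2.69-fold higher, the factor Mitf 1.81-fold, the pump gene Atp6v1b2 1.46-fold and the GM2 activator Gm2a 1.23-fold, while the sialidase Neu1 was at 0.647 and the channel Mcoln1 at 0.775 of the control mean. These 6 of the 45 passed an adjusted p of 0.05 (limma, Benjamini-Hochberg over all 10934 genes) in the model that carries the replicate number as a block, against 12.7% of all genes, so the share of the set that passed (13.3%) was close to that of all genes. The higher 4 stand against 5.88% of all genes and the lower 2 against 6.86%. Without the block Neu1 alone passed, against 0.841% of all genes, and 8 of the 45 (17.8%) had an unadjusted p under 0.05, against 13.9% of all genes. The median log2 difference of the set was 0.019 and that of all genes -0.0265.

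The genes that passed were of several roles. Atp6v0a1, at chr11:101009452-101063719 (GENCODE M21, GRCm38), encodes the a1 isoform of the V0 subunit through which protons pass. In Ern1f/f it was listed at 146 FPKM in control 1 and 414 with IL-4, and at 90.1 in control 2 and 207 with IL-4. In Ern1f/fLyz2-Cre it went from 142 to 369 FPKM in replicate 1 and from 100.3 to 297 FPKM in replicate 2. All 4 IL-4 libraries lay above all 4 controls, with pair differences from 1.19 to 1.56. The log2 difference was 1.4 ± 0.12 (SE, n = 4 against 4, adjusted p = 0.00202) with the replicate block and 1.4 ± 0.29 (adjusted p = 0.108) without it. The call with the block held without each library in turn, with adjusted p from 0.00278 to 0.0174.

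Naglu, a hydrolase of heparan sulfate, begins 6292 bases downstream of Atp6v0a1 and was not higher with IL-4. It lay at 78.9, 82.1, 52.3 and 44.3 FPKM in the controls (Ern1f/f 1, Ern1f/fLyz2-Cre 1, Ern1f/f 2, Ern1f/fLyz2-Cre 2) and at 68.2, 57.3, 52.1 and 44.4 FPKM with IL-4, a log2 difference of -0.18 (adjusted p = 0.310 with the block). The groups overlapped.

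Atp6v1b2, at chr8:69088646-69113711, encodes the B2 subunit that forms part of the ATP-hydrolysing head. It went from 231 to 355 and from 293 to 375 FPKM in Ern1f/f (replicates 1 and 2), and from 216 to 317 and from 308 to 487 FPKM in Ern1f/fLyz2-Cre. All IL-4 libraries again lay above all controls. The difference was 0.545 ± 0.11 (SE, adjusted p = 0.0239) with the block and had an adjusted p of 0.301 without it; with 1 library left out the blocked call was kept in 2 of 8 cases, without Ern1f/f IL-4 replicate 2 or Ern1f/fLyz2-Cre control replicate 2.

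The other 8 pump genes did not pass in either model. Their differences ran from -0.16 for Atp6v0d1, the V0 d1 subunit, to 0.19 for Atp6v0c, the proton-binding ring subunit. Atp6v1e1 (0.17) and Atp6v1h (0.18) were higher in all 4 pairs and Atp6v0d1 lower in all 4. Among 14 further pump genes of a pathway list, 9 were tested and 1 passed, against 12.7% of all genes: Atp6v0d2, the d2 isoform known from osteoclasts and macrophages, had a difference of 0.90 (adjusted p = 0.0035 with the block, 0.0690 without it). It rose from 215 to 375 FPKM and from 203 to 397 FPKM in replicate 1 of Ern1f/f and Ern1f/fLyz2-Cre. The alternative a, B, C, E and e isoform genes Atp6v0a4, Atp6v1b1, Atp6v1c2, Atp6v1e2 and Atp6v0e2 stayed under 1 FPKM.

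Of the factors only Mitf passed. At chr6:97807052-98021349, it went from 17.3 to 35.4 and from 12.7 to 19.6 FPKM in Ern1f/f, and from 15.4 to 28.6 and from 14.3 to 24.2 FPKM in Ern1f/fLyz2-Cre, with no overlap between control and IL-4. The log2 difference was 0.79 ± 0.13 (SE, adjusted p = 0.0124) with the block and 0.79 ± 0.21 (adjusted p = 0.181) without it. The blocked call was kept in 4 of 8 cases with 1 library left out and lost without any of Ern1f/f control 1 or 2 and Ern1f/fLyz2-Cre IL-4 1 or 2, with adjusted p up to 0.0601. Tfe3 lay at 53.3, 54.5, 58.0 and 56.8 FPKM in the controls and at 59.8, 50.5, 51.5 and 54.1 FPKM with IL-4, a difference of -0.045 with a blocked 95% interval from -0.25 to 0.16.

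Tfeb, at chr17:47737030-47792419, did not pass (0.18, adjusted p = 0.310 with the block). In the libraries numbered 1 it went from 32.1 to 44.8 FPKM in Ern1f/f and from 30.9 to 37.6 FPKM in Ern1f/fLyz2-Cre. In those numbered 2 it was 24.0 and 23.9 FPKM in Ern1f/f and 23.8 and 23.5 FPKM in Ern1f/fLyz2-Cre, control and IL-4. The IL-4 libraries were thus higher in number 1 and level with the controls in number 2. Tfec, another member of the family that is largely confined to myeloid cells, came from the pathway list of mTORC1 and lysosomal nutrient genes, where 1 of 17 tested genes passed, against 12.7% of all genes. It was listed at 7.32, 8.17, 7.50 and 5.64 FPKM in the controls and at 20.0, 24.2, 18.2 and 18.7 FPKM with IL-4. Its difference of 1.39 passed in both models (adjusted p = 0.00113 with the block, 0.0180 without it).

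**Figure D2:**
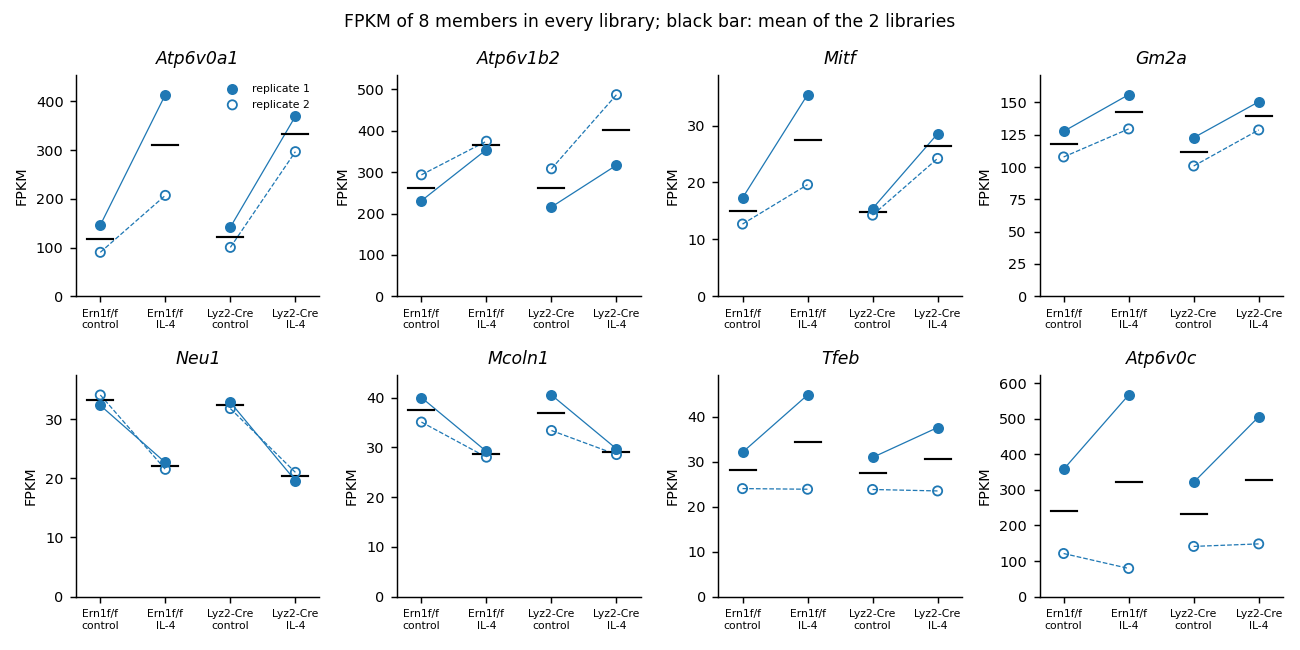
FPKM of 8 genes in every library, by genotype and treatment (Lyz2-Cre stands for Ern1f/fLyz2-Cre); filled points and solid lines are replicate 1, open points and dashed lines replicate 2, and black bars are means of 2 libraries. Atp6v0a1, Atp6v1b2, Mitf and Gm2a are higher and Neu1 and Mcoln1 lower with IL-4 in every pair, while Tfeb is higher with IL-4 in replicate 1 only and Atp6v0c differs mainly between the replicate numbers.

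Of the 16 hydrolases of glycans and sulfates 11 lay lower with IL-4 (68.8%, against 55.2% of all genes), 6 of them in all 4 pairs (against 23.5%), with a median of -0.12. In number 1, 14 of 16 lay lower (median -0.30, against 55.7% of all genes), and in number 2, 7 of 16 did (median 0.059, against 52.6%); the difference between the numbers was not tested for the class. Neu1, at chr17:34931253-34935953, removes terminal sialic acids. It was listed at 32.4, 32.9, 34.1 and 31.8 FPKM in the controls (Ern1f/f 1, Ern1f/fLyz2-Cre 1, Ern1f/f 2, Ern1f/fLyz2-Cre 2) and at 22.7, 19.6, 21.5 and 21.03 FPKM with IL-4. The 2 sets of libraries were far apart and each varied little. The log2 difference was -0.61 ± 0.07 (SE, adjusted p = 0.00571) with the block and -0.61 ± 0.08 (adjusted p = 0.0396) without it. With 1 library left out, the blocked call held in 8 of 8 cases and the call without the block in 0 of 8.

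Other glycan hydrolases were lower in all 4 pairs but did not pass. Sgsh, which removes sulfate from heparan sulfate, had the largest difference (-0.69, adjusted p = 0.0509 with the block). It went from 26.6 to 13.7 and from 28.0 to 11.2 FPKM in the libraries numbered 1, and from 9.79 to 7.20 and from 9.60 to 8.17 FPKM in those numbered 2. Idua (-0.31), the iduronidase of heparan and dermatan sulfate, had an adjusted p of 0.0571 with the block. Gaa, the acid glucosidase of glycogen, was at -0.34, Arsa at -0.25 and Fuca1, the fucosidase, at -0.24. Manba, beta-mannosidase, was the only one of this class higher in all 4 pairs (0.27). Sgsh shares 21.6% and Arsa 18.8% of annotated exon bases with a gene on the opposite strand (Card14 and C230037L18Rik). The strand setting of the counting is not given, so reads of these neighbours cannot be told apart from theirs.

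The lipid and protein enzymes and cofactors lay on both sides of 0. Gm2a, at chr11:55098115-55113029, lifts GM2 ganglioside out of the membrane for hexosaminidase A. It went from 128 to 156 and from 108 to 129.5 FPKM in Ern1f/f, and from 123 to 150.5 and from 100.8 to 129 FPKM in Ern1f/fLyz2-Cre. The pair differences, 0.26 to 0.35, were alike, and control and IL-4 libraries did not overlap. The difference of 0.30 ± 0.07 passed with the block (adjusted p = 0.0439) and not without it (0.392), and the blocked call was lost without any 1 of the 8 libraries. Psap was higher in all 4 pairs and without overlap (5641, 5945, 5376 and 5327 FPKM against 6881, 6407, 6886 and 7465 FPKM), but its difference of 0.31 had an adjusted p of 0.0761 with the block. Smpd1 was lower in all 4 pairs (-0.36, adjusted p = 0.0661), as were Ppt1, palmitoyl-protein thioesterase (-0.23), and Grn (-0.20). Lgmn, asparaginyl endopeptidase, was higher in all 4 pairs by 0.10.

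Among the membrane proteins Mcoln1, at chr8:3500457-3515232, passed. It encodes the cation channel TRPML1, which releases lysosomal calcium and is itself known as a target of TFEB. It was at 40.0, 40.5, 35.1 and 33.4 FPKM in the controls and at 29.2, 29.7, 28.0 and 28.5 FPKM with IL-4. No IL-4 library reached the lowest control. The difference was -0.35 ± 0.08 (adjusted p = 0.0333 with the block, 0.211 without it), and the blocked call was lost without any 1 of the libraries (adjusted p up to 0.134). Cln3, whose loss causes a childhood lipofuscinosis, was also lower without overlap (34.0, 34.0, 35.2 and 32.4 against 28.0, 27.8, 28.3 and 30.2 FPKM), with a difference of -0.24 (adjusted p = 0.0839 with the block). Lamp1 (0.10), Lamp2 (0.11), Laptm5 (-0.10) and Npc1, the cholesterol exporter (0.11), showed no common direction.

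Control and IL-4 libraries did not overlap for 8 of the 45 genes, against 14.2% of all genes. Of these, 5 were higher with IL-4 (Atp6v0a1, Atp6v1b2, Mitf, Psap and Gm2a), against 6.98%, and 3 lower (Neu1, Mcoln1 and Cln3), against 7.23%. The same direction in all 4 pairs was seen for 22 of the 45, against 40.5% of all genes, with 10 higher (against 17%) and 12 lower (against 23.5%). Of the genes with TCACGTGA, Mcoln1 and Cln3 were lower without overlap, while Gla (-0.0655), Atp6v1a (0.12) and Atp6v0d1 (-0.16) were not separated. A motif of TTC, any 4 bases and GAA, the form of element that STAT6 can bind, was searched after the results were known. It was found in the promoters of Cln3, Gm2a and Tfeb, 3 of 38 genes (7.89%), close to its share of all genes (8.01%), and not in the windows of Atp6v0a1, Mitf, Neu1 or Mcoln1. Of the 3 genes with it, Gm2a rose, Cln3 was lower and Tfeb did not pass, and a part of the motif was not tested. The Gm2a match, chosen with that outcome known, is printed with the motif in capitals and begins 59 bases before the start.
Gm2a, chr11:55097916-55097945, plus strand: ttttttttttTTCCTCAGAActcagctccg

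**Figure D3:**
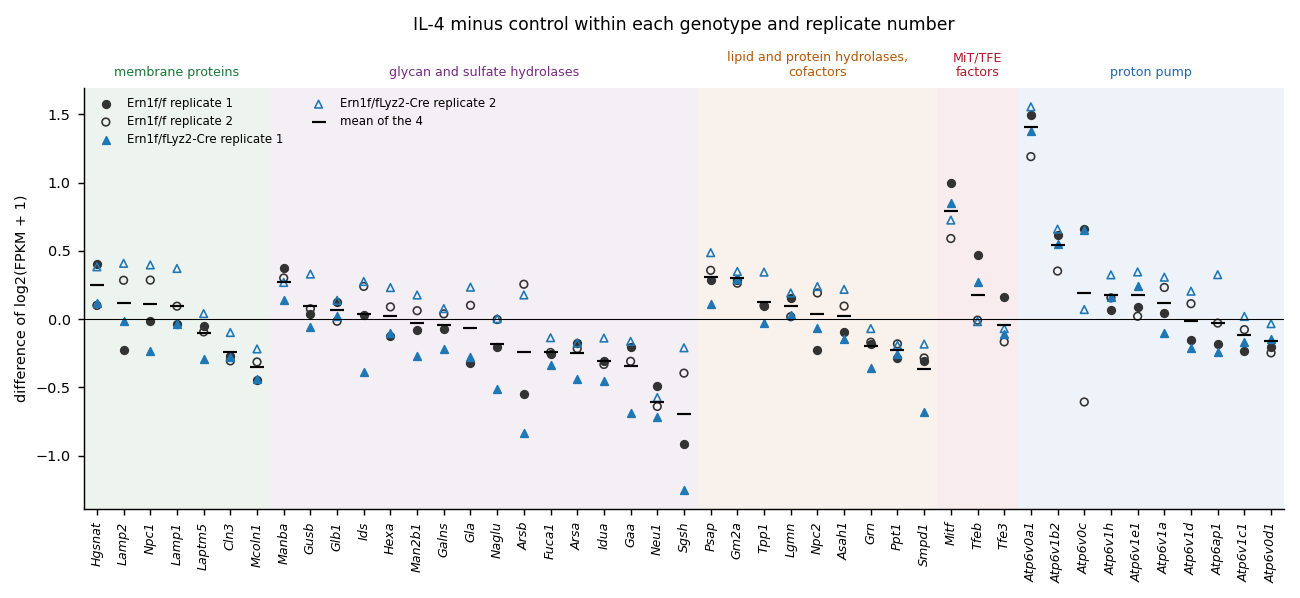
Difference of log2(FPKM + 1), IL-4 minus control, for each of the 45 genes within each genotype and replicate number (4 points a gene), ordered by the mean (black bar) within each role; black circles are Ern1f/f, blue triangles Ern1f/fLyz2-Cre, filled replicate 1 and open replicate 2. Atp6v0a1 stands at 1.19 or above in every pair, Neu1 lies between -0.72 and -0.49, and many other genes have filled points below 0 and open points above it.

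The IL-4 difference was also taken within each replicate number. When the genotypes were taken as replicates within each number, 12 of the 45 passed in the libraries numbered 1 against 20.7% of all genes (5 higher against 8.58%, 7 lower against 12.1%), and 4 in those numbered 2 against 11.6% (3 higher against 5.3%, 1 lower against 6.34%). Atp6v0a1 (1.44 and 1.37), Mitf (0.92 and 0.66) and Neu1 (-0.60 and -0.61) passed in both. In number 1 alone Atp6v1b2 (0.58), Tfeb (0.37, adjusted p = 0.0334), Gm2a (0.29), Sgsh (-1.08, adjusted p = 0.000731), Smpd1 (-0.49), Mcoln1 (-0.44), Arsa, Gla and Cln3 passed, and in number 2 alone Psap (0.42). Passing in 1 number alone does not mean absence in the other. In number 2, Atp6v1b2 (0.51, limma adjusted p = 0.0522) and Gm2a (0.31, adjusted p = 0.0534) missed narrowly, while Tfeb was at -0.013. The set's median was -0.15 in number 1 and 0.15 in number 2. The test of the difference between the numbers called none of the 45, against 0.969% of all genes. The smallest adjusted p was that of Sgsh (0.0674), and that of Tfeb was 0.215. The fibroblast marker sum was 171 and 469 FPKM in the controls numbered 1 and 82.0 and 213 FPKM with IL-4 (Ern1f/f, Ern1f/fLyz2-Cre), so it moved with treatment there as did the hydrolases that were lower with IL-4; its part in these results was not tested. The summed level of 7 osteoclast markers, with Calcr and Oscar under 1 FPKM throughout, was higher with IL-4 in every pair (55.4 to 157 FPKM in the controls, 97.2 to 236 FPKM with IL-4), as were Atp6v0a1, Atp6v0d2 and Mitf. All 5 tested markers were higher in every pair, but only Ocstamp and Dcstamp passed with the block (against 12.7% of all genes). In the Ern1f/f pair numbered 1, Ocstamp went from 0.191 to 25.5 FPKM, Dcstamp from 2.44 to 16.2 and Mmp9 from 5.33 to 10.4. Acp5 (51.46 and 51.5 FPKM) and Ctsk (12.75 and 12.83 FPKM) were nearly level there. The part of the osteoclast marker sum was likewise not tested. Of 10 listed neutrophil markers 9 were found, 6 of them under 1 FPKM throughout. Their summed level was 21.5 to 40.2 FPKM in the controls and 6.43 to 20.3 FPKM with IL-4. Most of it in every library was S100a8 alone (20.8 to 33.1 FPKM in the controls, 5.845 to 19.15 FPKM with IL-4). The part of this sum was not tested.

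Within each genotype alone the same genes led. In Ern1f/f, 1 of 45 passed with the block (Atp6v0a1, 1.34, adjusted p = 0.0201), against 2.12% of all genes. Without the block 0 of 45 passed, against 0%, with 6 of 45 at an unadjusted p under 0.05 (limma), against 6.16%. In Ern1f/fLyz2-Cre, 2 of 45 passed with the block (Atp6v0a1, 1.47, adjusted p = 0.0138, and Neu1, -0.65, adjusted p = 0.0311), against 3.32% of all genes. Without it 0 of 45 passed, against 0.0549%, with 3 of 45 at an unadjusted p under 0.05, against 8.53%. The test of the difference between the genotypes' responses called 0 of 45 in either limma model, as it did for 0% of all genes, and 0 of 45 had an unadjusted p under 0.05, against 0.174% without the block. For Atp6v0a1 that difference was 0.12 with a blocked 95% interval from -0.46 to 0.71, for Mitf -0.0055 (-0.61 to 0.60), for Neu1 -0.08 (-0.43 to 0.28) and for Tfeb -0.10 (-0.615 to 0.41). Atp6v1e1 (0.24, -0.12 to 0.60) and Atp6v0d1 (0.13, -0.30 to 0.57) had the smallest unadjusted p among the higher members. These intervals span differences as large as several of the IL-4 effects themselves.

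The genotypes were compared to ask what deletion of Ern1 in myeloid cells does to lysosomal gene expression. No gene of the set passed in any genotype comparison: 0 of 45 in control (against 0% of all genes with and without the block), 0 of 45 with IL-4 (against 0.00915% with the block and 0% without it) and 0 of 45 averaged over treatments (against 0% in both). By limma without the block, 1, 1 and 3 of the 45 had an unadjusted p under 0.05 in these comparisons, against 0.247%, 0.384% and 0.476% of all genes. The set's median averaged over treatments was 0.013.

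The 3 genes with the smallest unadjusted p in the average were Idua, Asah1 and Hgsnat. Asah1, acid ceramidase, at chr8:41340197-41374773, was listed in Ern1f/f at 99.96, 93.7, 102 and 109 FPKM (control 1, IL-4 1, control 2, IL-4 2) and in Ern1f/fLyz2-Cre at 128.5, 116, 121 and 141 FPKM. The Ern1f/fLyz2-Cre libraries all lay above the Ern1f/f ones, and the pair differences were alike (0.25 to 0.37, mean 0.32 ± 0.11 SE). Hgsnat, at chr8:25944453-25976753, acetylates heparan sulfate at the lysosomal membrane. It was at 29.8, 39.8, 34.5 and 37.0 FPKM in Ern1f/f and at 40.3, 43.9, 57.5 and 75.3 FPKM in Ern1f/fLyz2-Cre, also without overlap, but with pair differences that ran from 0.14 to 1.004 and were larger in number 2. Idua, at chr5:108660331-108684557, was lower in all 4 pairs, with 25.5, 20.4, 23.7 and 18.6 FPKM in Ern1f/f and 19.9, 14.3, 17.5 and 15.8 FPKM in Ern1f/fLyz2-Cre (-0.37 ± 0.09 SE). The adjusted p was 0.9999 for each without the block and 0.9998 with it. Groups that do not overlap were seen for 2 of the 45 in this comparison, against 0.338% of all genes.

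**Figure D4:**
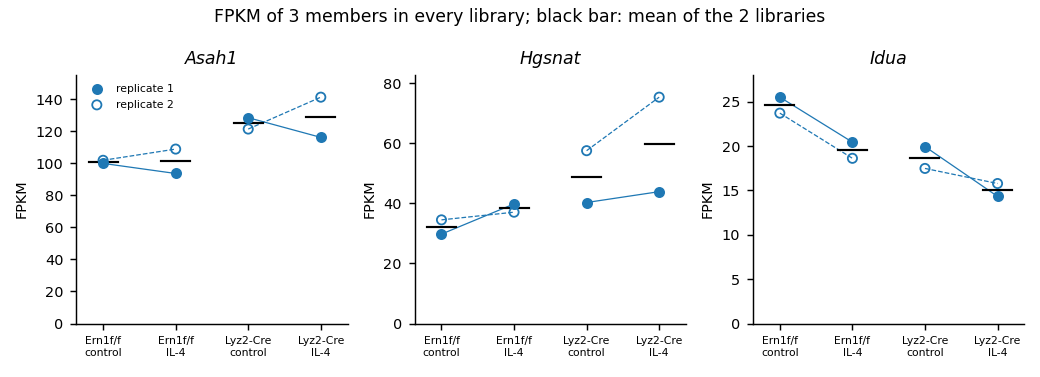
FPKM of Asah1, Hgsnat and Idua in every library, by genotype and treatment (Lyz2-Cre stands for Ern1f/fLyz2-Cre); filled points and solid lines are replicate 1, open points and dashed lines replicate 2, black bars are means of 2 libraries. Asah1 and Hgsnat are higher and Idua lower in Ern1f/fLyz2-Cre within each treatment and number, and none of the 3 passed the test over all genes.

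More of the set differed between the replicate numbers than with IL-4, as did more of all genes (33.4% against 12.7% with the block). With the group in the model, 17 of the 45 differed between libraries numbered 2 and 1 (37.8%), close to the 33.4% of all genes. In number 2, 3 were higher (against 10.1% of all genes) and 14 lower (against 23.3%). The median was -0.14 for the set and -0.11 for all genes. Scaling the libraries by the median of ratios moved the median of all genes to -0.0073 and the set's to -0.028. It moved the calls in the set to 14, with 6 higher and 8 lower. The share of all genes called with that scaling is not reported here, so these counts do not set the set apart from other genes. The fibroblast, osteoclast, monocyte and B cell marker sums given above part the same libraries, and their part was not tested.

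Atp6v0c, at chr17:24163866-24169702, had the widest listed difference. It was at 358, 567, 321.5 and 506 FPKM in number 1 (Ern1f/f control and IL-4, Ern1f/fLyz2-Cre control and IL-4) and at 121, 79.1, 141 and 148 FPKM in number 2, a log2 difference of -1.83 ± 0.25 (SE, adjusted p = 0.00327). The numbers did not overlap in any group. A pseudogene, Atp6v0c-ps2, was listed at 687 to 1301 FPKM, above its parent in every library, so reads shared between these near-identical copies may be divided between them. The sum of both was 1254 to 1474 FPKM in number 1 and 1102 to 1449 FPKM in number 2, and its log2 difference within groups averaged -0.082 (-0.42 to 0.0865). The level of Atp6v0c and its difference between the numbers are therefore uncertain.

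Arsb, which removes sulfate from dermatan and chondroitin sulfate, was at 31.9, 21.5, 29.15 and 15.9 FPKM in number 1 and at 6.84, 8.36, 11.6 and 13.2 FPKM in number 2 (-1.21 ± 0.26 SE, adjusted p = 0.0152). It shares 32.3% of its exon bases with Gm26527 on the opposite strand. Sgsh (-1.01 ± 0.18 SE, adjusted p = 0.00743), Tfeb (-0.58 ± 0.11 SE, adjusted p = 0.00904), Atp6v0a1 (-0.62) and Naglu (-0.55) were also lower in number 2. Arsa, Gusb (beta-glucuronidase), Hexa, Galns, Npc1, Npc2 (which hands cholesterol to Npc1), Ppt1 and Gm2a were lower in number 2 by smaller differences, from -0.25 for Gm2a to -0.47 for Arsa.

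Higher in number 2 were the pump genes Atp6v1d (0.44 ± 0.10 SE, adjusted p = 0.0165) and Atp6v1b2 (0.39 ± 0.11 SE, adjusted p = 0.0341) and the galactosidase Glb1 (0.38 ± 0.08 SE, adjusted p = 0.0141). Atp6v1d, the central-stalk D subunit, was at 72.5, 65.0, 75.9 and 65.3 FPKM in number 1 and at 89.4, 96.8, 90.3 and 104 FPKM in number 2, without overlap. Glb1 was at 48.0, 52.5, 48.7 and 49.5 FPKM in number 1 and at 69.6, 68.8, 57.9 and 63.7 FPKM in number 2. With 1 library left out, the call was kept in 4 of 8 cases for Atp6v1d, 2 of 8 for Atp6v1b2 and 6 of 8 for Glb1, and in 8 of 8 for Atp6v0c, Arsb, Sgsh, Tfeb, Atp6v0a1 and Naglu. With no filter on low values, Arsb (adjusted p = 0.0561) and Atp6v1b2 (0.0680) no longer passed. Fewer of the set passed when 1 library was left out, but the share of all genes called then is not reported here. The set's median between the numbers then ran from -0.19 to -0.099.

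**Figure D5:**
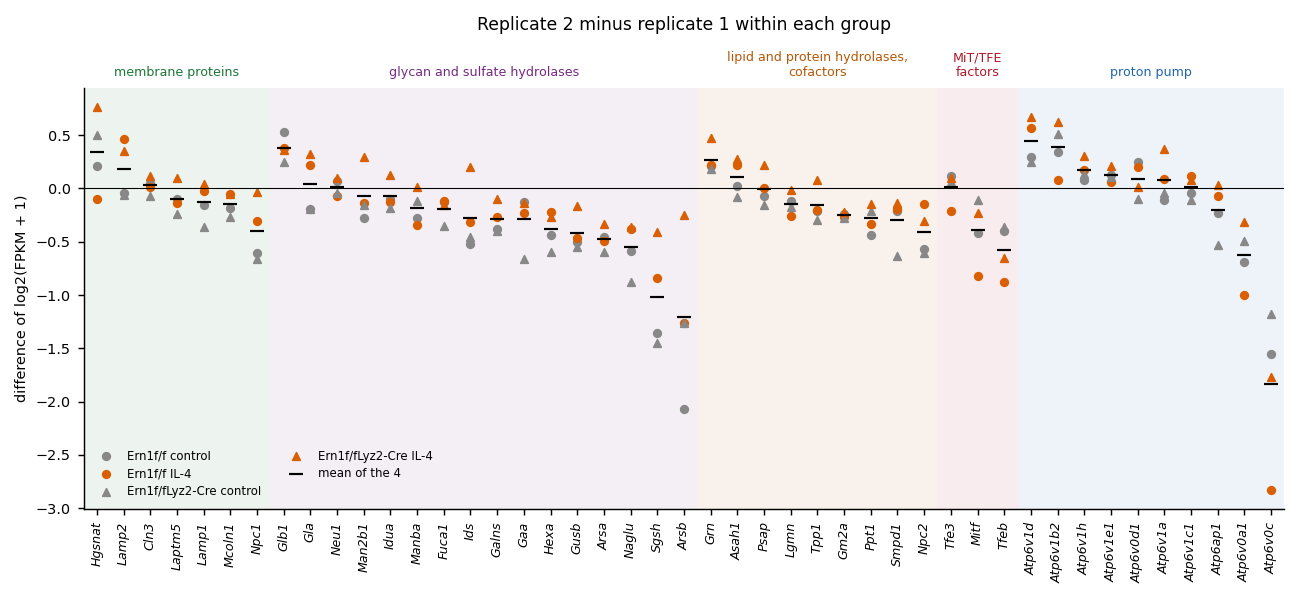
Difference of log2(FPKM + 1), replicate 2 minus replicate 1, for each of the 45 genes within each of the 4 groups (4 points a gene), ordered by the mean (black bar) within each role; grey is control, orange IL-4, circles Ern1f/f, triangles Ern1f/fLyz2-Cre. Atp6v0c, Arsb and Sgsh lie far below 0 in their means. Of the glycan hydrolases 13 of 16 have means below 0, and 7 of 10 pump genes have means above it. Of all 10934 genes tested, 7126 were lower and 3808 higher in number 2.

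Further lysosomal genes from pathway lists were counted by the same test of IL-4 averaged over genotypes, with the block, in which 12.7% of all genes passed (5.88% higher, 6.86% lower). Among other hydrolases and cofactors Ifi30, the lysosomal thiol reductase (0.86), passed as higher and Hyal2, a hyaluronidase (-0.48), as lower. Of 10 cathepsins 2 passed, Ctss higher (0.42) and Ctsc lower (-0.44). Of 19 other membrane proteins 1 passed, the calcium channel Tpcn2 (0.60). None of 9 genes of mannose 6-phosphate sorting, the route that brings hydrolases to the lysosome, passed in limma, with 1 at an unadjusted p under 0.05 (against 30% of all genes). Of 15 tested autophagy genes 3 passed, all lower (against 6.86% of all genes): Sqstm1, the receptor p62 (-0.49), Map1lc3a (-0.51) and Ulk1, the initiating kinase (-0.53). Of 17 tested genes of the Rag, Ragulator and folliculin list 1 passed, Tfec.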

How the data were processed

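Total RNA from 8 libraries was sequenced by the authors. Per the submitters' processing notes reads were handled with TopHat 1.4.1 and Cufflinks 1.3.0 on mm10, and the deposited FPKM values per gene, with their confidence intervals, were used; no counts were used. The gene models and strand setting are not given in the sources used here. FPKM of the 243 symbols on more than 1 row were summed. The 10934 genes that reached 1 FPKM in 2 or more libraries were fitted as log2(FPKM + 1) with limma 3.58.1 (R 4.3.3, mean-variance trend) over 4 group means, and p-values were adjusted over all genes by Benjamini-Hochberg at 0.05; a difference on this scale understates the change of low genes. Pair differences subtract libraries with the same number.

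Same-numbered libraries deviated together (r = 0.69 to 0.83 over 6 pairs of groups), and the first principal component (59.0% of variance) parts the numbers. The numbers were therefore taken to pair the libraries, and values with the number as a block stand beside those without. The rule for the set uses no measured value, but the members and lists were chosen with earlier results of these data known. The full count of the list of other hydrolases is not reported here. Genes given per library are those passing a comparison (up to 6 each way), the 2 higher and 2 lower with the smallest unadjusted p, the factors, and the highest and lowest of each role. Alternatives changed the pseudocount, filter, scaling, variance model, rows summed, libraries and genotype label.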

Additional observations from a re-analysis of the deposited data

Results flagged for a closer look

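In 12 of the 45 genes the IL-4 difference had one sign in both genotypes of the libraries numbered 1 and the other sign in both genotypes of those numbered 2, against 13.1% of all genes. By that comparison of signs the difference is not tested, and in the limma fit that tests it none of the 45 passed. The log2 difference of number 2 minus number 1 was 0.27 for Lamp1, 0.46 for Lamp2, 0.465 for Npc1 and 0.36 for Npc2. It was 0.27 for Hexa, 0.47 for Gla, 0.20 for Galns, 0.29 for Man2b1, the lysosomal alpha-mannosidase, and 0.91 for Arsb. Asah1 stood at 0.275 and Atp6v1d at 0.34. In these 11 genes the IL-4 libraries lay below their controls in number 1 and above them in number 2. Tfeb had the opposite order, at -0.385.

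In 2 of the 45 genes the genotype difference had opposite signs in control and with IL-4 in both numbers, against 8.65% of all genes. They were the pump genes Atp6v1c1 (0.082) and Atp6v1e1 (0.24), each higher in Ern1f/fLyz2-Cre with IL-4 and lower in control. The interaction term called neither (adjusted p = 0.9999 with the block).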

How the results depend on the processing

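With 2 libraries a group, the replicate block decided most IL-4 calls: it moved the count of the set from 0 to 1 in Ern1f/f, from 0 to 2 in Ern1f/fLyz2-Cre and from 1 to 6 averaged, and it changed no genotype or interaction call. The genotype field was also used in place of the titles, which makes genotype the same as replicate number. For IL-4, the counts of the set were then 12 in Ern1f/f, 4 in Ern1f/fLyz2-Cre and 15 averaged. Of all 10934 genes, 2264, 1273 and 2919 passed in the same order. For genotype, 21 of the set passed in control, 11 with IL-4 and 23 averaged, against 3816, 3273 and 5240 of all 10934 genes. Many genes outside the set thus passed as well, so these counts alone do not mark a lysosomal difference. The set's median was then -0.15 for IL-4 in Ern1f/f, -0.23 for genotype in control and -0.14 for genotype averaged. The medians of all genes were -0.0353, -0.1144 and -0.107. In the same setting Asah1 in control (-0.027), Idua with IL-4 (0.0015), Neu1 with IL-4 (0.011) and averaged (0.0125) and the Manba interaction (0.029) changed sign. The median between replicate numbers was -0.028 with median-of-ratios scaling. With 1 library left out, 0 of the set passed for IL-4 averaged without the block, and 2 to 7 with it. For IL-4 these counts were 0 and 0 to 1 in Ern1f/f, and 0 and 0 to 3 in Ern1f/fLyz2-Cre. Between numbers, 8 to 13 passed. The shares of all genes called in these refits are not reported here. These counts therefore do not set the set apart from other genes. Without the block, the set's median then ran from -0.13 to 0.0697 for IL-4 in Ern1f/f. It ran from -0.126 to 0.149 for genotype in control and from -0.059 to 0.082 for genotype averaged. Among the genes and comparisons refitted without 1 library, 3 differences changed sign. The wider range of the 2 models is given for each. The Gla difference in control ran from -0.25 to 0.061 with the block. Without it, the Manba interaction ran from -0.31 to 0.0385 and the Tfeb interaction from -0.54 to 0.34. None of the 3 was called with all 8 libraries. FPKM tables give no read counts, so depth was taken from intervals only.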
